A study of Mus musculus with 6 samples.

Results

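Proteins that leave the endoplasmic reticulum (ER) travel in coated vesicles, and the genes described here encode the coats, the receptors that load them and the channel through which their cargo enters the ER. They were chosen by symbol: Sec followed by a number, Tmed followed by a number, Arf1 to Arf6, Sar1a and Sar1b, the COPI subunits, Lman1, Lman2 and Mcfd2. The rule found 55 genes among the 18193 genes that had a probe set annotated to a single gene. It also took in 4 Sec14-like genes, which encode lipid-binding proteins and no coat subunit, so they are given last. The rule itself uses symbols alone, although it was written with earlier results of these data known.

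The cells were Ba/F3-N, a mouse pro-B line of bone marrow origin that carries NRAS-G12D in both groups. One group of 3 samples received 1 µM N-arachidonoyl dopamine (NADA), an endocannabinoid-like lipid, for 12 h, and the other group of 3 received the same volume of vehicle for 12 h. Both groups come from 1 cell line, and the labels do not say whether the samples of a group were separate cultures, so the p-values measure the spread between these samples, which may be technical. Each sample was hybridized to 1 Affymetrix mouse expression array, and their number limits the precision. In bulk RNA, a smaller share of cells expressing a gene and less of its RNA per cell cannot be told apart.

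COPII carries cargo from the ER towards the Golgi. The GTPase Sar1 recruits an inner layer of Sec23 and Sec24, in which Sec24 binds cargo, and an outer cage of Sec13 and Sec31 closes the vesicle. COPI, recruited by Arf GTPases, returns escaped ER proteins and receptors from the Golgi. The p24 proteins, which many Tmed genes encode, ride in both coats. Lymphoid cells are known to enlarge this machinery when they turn to bulk secretion, and the unfolded protein response is known to raise parts of it.

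The deposited values are linear intensities, and differences are given as log2 of NADA over vehicle with the standard error of the fit (limma, 3 arrays per group). A gene was tested where its mean intensity reached 39.01, the median over probe sets. Calls were made where p, adjusted by Benjamini-Hochberg over 10520 genes, was under 0.05. "Rose" and "fell" are used of called genes. Of the 55 members, 50 were tested, each with both group means above the limit. Copz2, Sec16b, Tmed2, Tmed6 and Tmed11 stayed dim in both groups, with means of at most 16.23 over all arrays. Tmed2 encodes a core p24 subunit, and its value here rests on 1 dim probe set.

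Of the 50 tested members, 34 rose in NADA-treated cells, which is 68% of them, against 35.9% of all genes tested. Another 9 fell, which is 18%, against 37.6% of all genes, and 7 were not called. Of all genes, 73.5% were called in either direction. The median log2 difference was 0.24 over the members and 0.01 over all genes. At a change of at least 1.5-fold, 11 members were higher and 2 were lower, against 13.1% and 15.9% of all genes. In 34 members all NADA values lay above all vehicle values, and in 8 they lay below, against 37.2% and 38.8% of all genes. Of the 31 members with several probe sets above the limit, 13 had the same call on all of them and 18 did not, and in 0 were probe sets called in opposite directions.

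**Figure D1:**
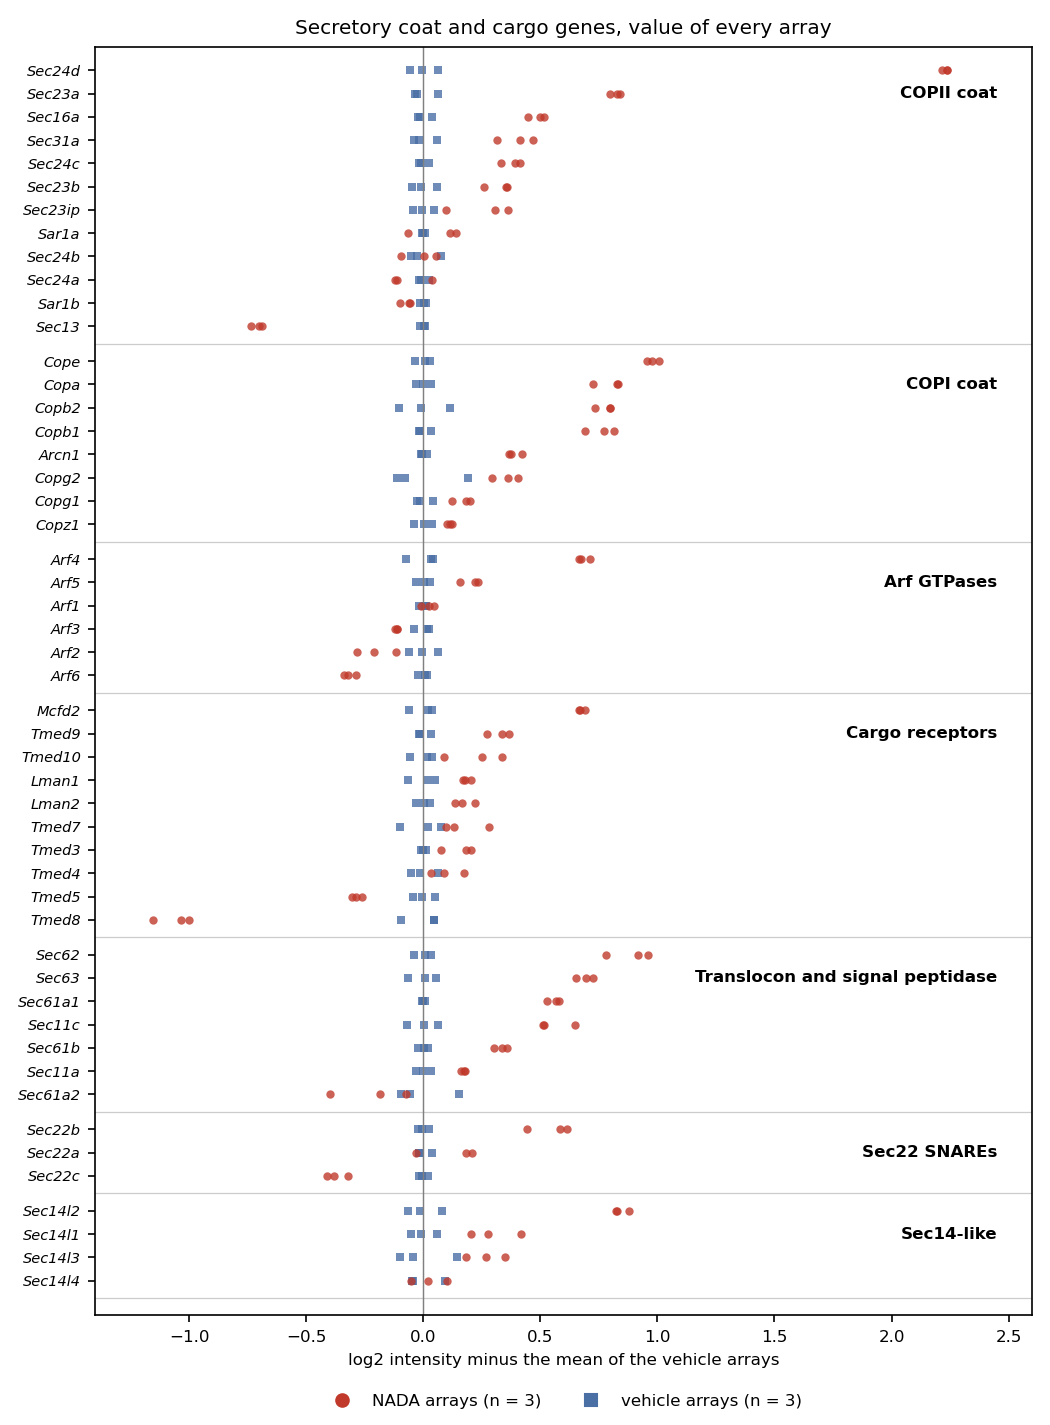
Log2 intensity of each array minus the mean of the vehicle arrays (x axis) for the 50 tested members, grouped by role (y axis), with NADA arrays as circles and vehicle arrays as squares, 3 arrays each. Sec24d stands farthest to the right, all 8 tested COPI genes lie to the right of their vehicle arrays, and Tmed8 and Sec13 lie farthest to the left.

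These directions hold relative to the bulk of genes on each array. Poly-A RNAs of bacterial origin, spiked in at labelling, read 8.72 ± 0.21 log2 units on NADA arrays and 8.14 ± 0.01 on vehicle arrays (SD, n = 3 each), 1.49-fold higher on NADA arrays (exact permutation p = 0.1, two-sided, the smallest that 3 against 3 arrays allow). Scaling every array to these RNAs lowers each log2 difference by 0.58 and takes the all-gene median to -0.57. On that scale 5 members rose and 28 fell, against 7.04% and 76% of all genes, and the median over the members was -0.34. Sec24d, Sec23a, Cope, Sec62 and Sec14l2 were called higher on both scales, at 1.65, 0.24, 0.40, 0.31 and 0.27 after scaling. Of these, Sec23a and Sec14l2 passed narrowly (limma, adjusted p = 0.0486 and 0.0442). Leaving out 1 array gave a poly-A difference of 0.50 to 0.70. Every gene shares this uncertainty, so the scaled calls are not independent of each other. All 9 members that fell as deposited also fell after scaling, but the shift lowers every difference, so this is no separate result. Of the other members that rose as deposited, 17 were not called and 12 fell after scaling. The 3′ probe set of Actb over its 5′ one was also higher on NADA arrays, at a log2 ratio of 1.06 ± 0.05, against 0.67 ± 0.04 on vehicle arrays (exact permutation p = 0.1). The same ratio of the poly-A RNAs was 1.15 ± 0.03 on NADA arrays and 0.91 ± 0.01 on vehicle arrays (exact permutation p = 0.1). The hybridization controls, which are added after labelling, read 10.08 ± 0.05 log2 units on NADA arrays and 9.93 ± 0.10 on vehicle arrays, 1.11-fold higher on NADA arrays (exact permutation p = 0.1). The part of these array differences in the results was not tested.

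Among the 12 tested COPII genes, 7 rose and 2 fell as deposited, with a median log2 difference of 0.29. The shares for all genes were 35.9% up and 37.6% down. With poly-A scaling, 2 COPII genes rose and 7 fell, beside 7.04% up and 76% down for all genes. Sec24d, an inner-coat subunit that binds cargo, read 1874, 1874 and 1845 on NADA arrays, against 415, 383 and 396 on vehicle arrays. The groups lay far apart, a log2 difference of 2.23 ± 0.04 or 4.69-fold (adjusted p = 3.00e-16), and 44 of the 10520 genes had a larger one. Sec23a, the inner-coat subunit that speeds GTP hydrolysis by Sar1 and so switches it off, read 418, 421 and 410 on NADA arrays, against 231, 230 and 246 on vehicle arrays. It rose by 0.82 ± 0.05 (adjusted p = 1.51e-10), and its groups did not overlap.

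Sec13 went the other way. It encodes a subunit of the outer cage that also belongs to the nuclear pore and to an amino acid sensing complex. Its values were 426, 430 and 417 on NADA arrays, against 697, 688 and 696 on vehicle arrays. Every NADA value was lower, a log2 difference of -0.71 ± 0.04 (adjusted p = 9.44e-11). Its cage partner Sec31a rose as deposited, by 0.40 ± 0.05, and stood at -0.18 after scaling. Sec16a, the scaffold of ER exit sites, rose by 0.49 as deposited, and Sec24c, Sec23b and Sec23ip rose by 0.38, 0.32 and 0.26, with scaled values of -0.09, -0.20, -0.25 and -0.32 for these 4 genes. On a second probe set Sec24c was not called, at -0.07. Sar1a, Sec24a and Sec24b were not called, at 0.06, -0.06 and -0.01, although without NADA replicate 3 Sar1a was called at 0.13 and Sec24a at -0.12. Quantile normalization also called Sar1a higher, at 0.14. A second probe set of each was called lower, at -0.19 for Sar1a (adjusted p = 0.00242), -0.19 for Sec24a (adjusted p = 0.0408) and -0.39 for Sec24b (adjusted p = 0.0146), with adjustment over all probe sets fitted. Sar1b was called at -0.07, the smallest change called among the members, and lost that call when any 1 of 5 arrays was left out.

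All 8 tested COPI genes rose as deposited, against 35.9% of all genes, with a median log2 difference of 0.57. After scaling Cope alone rose, 2 fell and 5 were not called, while 7.04% of all genes rose and 76% fell. Cope, the epsilon subunit, read 1597, 1542 and 1567 on NADA arrays, against 776, 801 and 811 on vehicle arrays. It rose by 0.98 ± 0.03 or 1.97-fold (adjusted p = 4.36e-13), with no overlap. Copa, the alpha subunit, read 2130, 2133 and 1985 on NADA arrays, against 1173, 1198 and 1228 on vehicle arrays.

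Copa rose by 0.80 ± 0.04 (adjusted p = 8.71e-12), while a second probe set gave 0.12 ± 0.27 and was not called. Copb2, the beta-prime subunit, read 1463, 1527 and 1527 on NADA arrays, against 818, 952 and 874 on vehicle arrays, and rose by 0.78 ± 0.05 (adjusted p = 3.06e-10). Copb1, the beta subunit, rose by 0.76. Arcn1, Copg2, Copg1 and Copz1, which encode the delta, gamma and zeta subunits, rose by 0.39, 0.35, 0.17 and 0.11 as deposited and stood at -0.19, -0.22, -0.41 and -0.47 after scaling. The call of Copz1 was lost under median centring and without vehicle replicate 1, at 0.092.

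**Figure D2:**
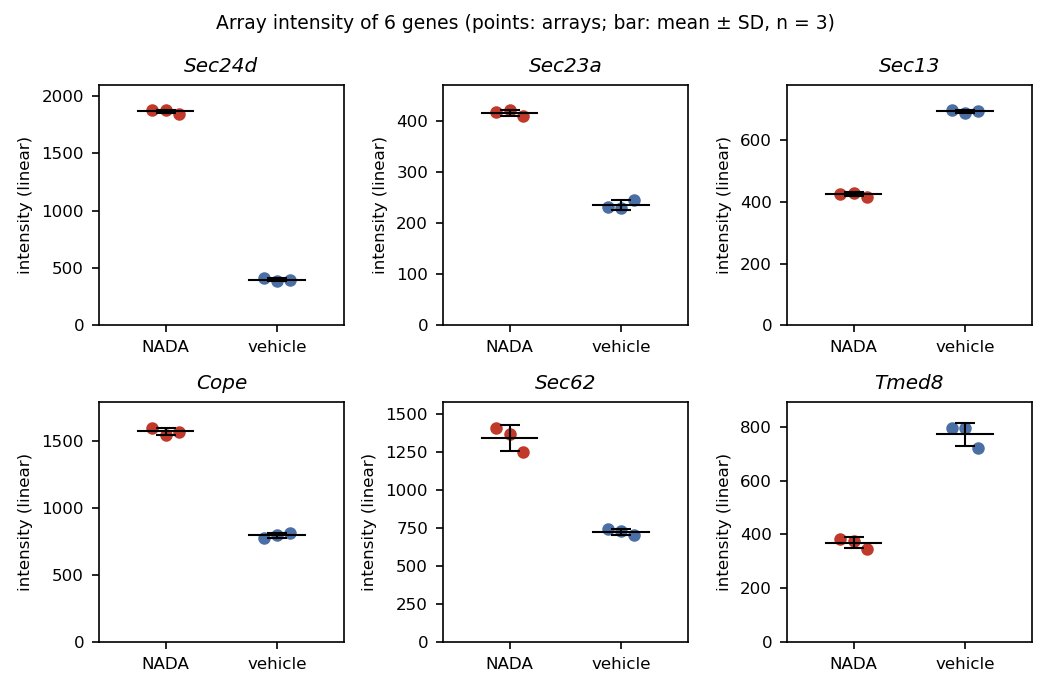
Deposited intensity (y axis, linear from 0, its own scale in each panel) on each NADA array (left) and each vehicle array (right), 3 each, with the mean and SD, for members with large changes. Sec24d reads 1845 to 1874 on NADA arrays and 383 to 415 on vehicle arrays, and no panel shows overlapping groups.

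Promoter sequences were compared because part of the members moved together. RefSeq promoters of the GRCm38.p6 assembly, 250 bases before to 50 after the start, were matched to 46 members through 53 entries. The element TGACGTGG, known to be bound by the unfolded protein response factors ATF6 and XBP1, was searched on both strands. It was found in 7 entries of 6 genes, Sec24d, Sec23a, Copb1, Copb2, Arf1 and Sec16b, which is 13.2% of the entries, against 0.676% of all 32851 promoters. Counting only the 250 bases before the start left 4 genes, with Sec23a and Copb2 dropping out, which is 7.55% against 0.563%.

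This element was singled out of 13 patterns after its matches had been seen, and the search returned to the whole window after the shorter one had been counted, so the shares are a description without a test. The cyclic AMP element TGACGTCA was found in 1 entry, Cope, which is 1.89% against 1.79%. TGATGCAA, an amino acid response element, was in 0 entries, against 0.895% of all promoters. The E-box CACGTG was in 8 entries, 15.1% against 7.15%. The longer ER stress elements ERSE and ERSE-II and an ATF4 pattern were in 0 entries, against 0.119%, 0.0365% and 3.97% of all promoters. The ISRE was in 4 of the 53 entries, against 3.44% of all promoters. The short core TGACG, part of the element, was in 22 of the 53 entries, against 20.8% of all promoters. CCACG, part of its reverse complement, was in 37 of the 53, against 32.8%. ACGTG, also part of the element, was in 32 of the 53, against 19.6%. These short parts were thus also more frequent in the members' entries than in all promoters. The GFY and CLEAR patterns, also looked at, are not counted here.

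The stretch from 150 bases before to 30 after the start is printed 5′ to 3′ along the gene for 4 members that rose and hold TGACGTGG, for Arf1, which holds it and was not called, and for Sec13, which fell and does not hold it. Capitals mark TGACGTGG or its reverse complement CCACGTCA.
Sec24d promoter, chr3:123267346-123267525, plus strand: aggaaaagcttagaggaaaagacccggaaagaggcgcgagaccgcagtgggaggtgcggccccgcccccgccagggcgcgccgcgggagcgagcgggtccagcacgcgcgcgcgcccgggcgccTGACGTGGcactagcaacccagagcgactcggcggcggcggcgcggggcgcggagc
Sec23a promoter, chr12:59011988-59012167, minus strand: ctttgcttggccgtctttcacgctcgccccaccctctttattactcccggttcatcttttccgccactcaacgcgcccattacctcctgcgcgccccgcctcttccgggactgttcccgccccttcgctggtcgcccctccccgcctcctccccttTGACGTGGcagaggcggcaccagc
Copb1 promoter, chr7:114254651-114254830, minus strand: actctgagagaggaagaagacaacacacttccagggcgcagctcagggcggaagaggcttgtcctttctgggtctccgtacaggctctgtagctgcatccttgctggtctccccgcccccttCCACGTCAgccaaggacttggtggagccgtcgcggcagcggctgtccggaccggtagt
Copb2 promoter, chr9:98563581-98563760, plus strand: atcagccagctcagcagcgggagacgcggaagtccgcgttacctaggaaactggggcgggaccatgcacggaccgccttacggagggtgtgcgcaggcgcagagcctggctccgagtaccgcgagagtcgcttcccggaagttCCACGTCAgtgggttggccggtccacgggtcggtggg
Arf1 promoter, chr11:59228133-59228312, minus strand: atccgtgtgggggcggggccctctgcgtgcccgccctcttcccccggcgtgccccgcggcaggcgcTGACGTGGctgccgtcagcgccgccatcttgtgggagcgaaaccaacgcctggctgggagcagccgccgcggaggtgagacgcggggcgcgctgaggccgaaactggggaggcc
Sec13 promoter, chr6:113740652-113740831, minus strand: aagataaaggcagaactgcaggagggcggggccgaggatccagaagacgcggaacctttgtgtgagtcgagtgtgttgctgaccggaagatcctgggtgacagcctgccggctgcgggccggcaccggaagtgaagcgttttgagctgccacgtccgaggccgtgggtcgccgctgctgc
The element begins 26 bases before the start in Sec24d and 28 before it in Copb1. In Copb2 it begins 7 bases before the start and runs past it, and in Sec23a it begins at base 7 after the start. Arf1 has a pair of annotated starts and the same copy lies 84 bases before the one printed. A match in these letters does not show that a factor binds there, and Sec16b, with the element 44 bases before its start, was dim in both groups. Of the members that rose as deposited, only Sec24d, Sec23a, Copb1 and Copb2 hold the element. Most risers with a matched promoter therefore lack it, among them Cope, Copa, Sec62, Sec63, Mcfd2, Arf4 and Sec14l2. Whether the element goes with the rise was not tested.

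Arf GTPases recruit COPI and other coats. Of the 6 tested, 2 rose and 3 fell as deposited, with a median of -0.05, and after scaling 5 fell. Among all genes 35.9% rose and 37.6% fell as deposited, and 76% fell after scaling. Arf4, which acts between ER and Golgi, read 846, 876 and 851 on NADA arrays, against 550, 507 and 547 on vehicle arrays. It was the 1 large riser, 0.68 ± 0.04 (adjusted p = 3.56e-10), and was not called after scaling, at 0.10.

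Arf6, which works at the plasma membrane and endosomes, read 2907, 2938 and 3012 on NADA arrays, against 3617, 3714 and 3689 on vehicle arrays. It fell by 0.32 on the log2 scale (adjusted p = 2.98e-08), and the mean over its probe sets gave -0.55. Arf5 read 165, 174 and 172 on NADA arrays, against 145, 151 and 148 on vehicle arrays, a small rise of 0.21 ± 0.05 (adjusted p = 0.00313) that turned to -0.37 after scaling. Arf3 and Arf2 fell by 0.11 and 0.20, and Arf3 was not called under quantile normalization, at -0.027. Its 4 other probe sets gave -0.65, -0.35, -0.24 and -0.02, of which the last was not called. Arf1, the main COPI recruiter, was not called, at 0.02, but was called higher under quantile normalization, at 0.065, and lower on a second probe set, at -0.11 (adjusted p = 0.0294).

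Of the 10 tested cargo receptors, 7 rose and 2 fell as deposited, with a median of 0.17, against 35.9% and 37.6% of all genes. After scaling 8 fell and 2 were not called, while 76% of all genes fell. Mcfd2, which with Lman1 carries coagulation factors out of the ER, read 956, 971 and 952 on NADA arrays, against 618, 576 and 610 on vehicle arrays. It rose by 0.68 ± 0.04 (adjusted p = 1.72e-10) and was not called after scaling, at 0.10. Its partner Lman1, a mannose-binding lectin, rose by 0.18 as deposited on its brightest probe set, stood at -0.39 after scaling, and was not called on any of its other probe sets.

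Tmed9, a p24 protein, read 1635, 1709 and 1744 on NADA arrays, against 1335, 1385 and 1341 on vehicle arrays. Its rise was 0.33 ± 0.03 (adjusted p = 3.27e-07), and -0.25 without a call after scaling. Tmed10, Tmed7, Tmed3 and the lectin Lman2 also rose as deposited, by 0.15 to 0.23, and all were negative after scaling. Tmed7 lost its call without vehicle replicate 1, at 0.12. Tmed4 was not called, at 0.10, but was called at 0.13 without NADA replicate 1 or vehicle replicate 2 and at 0.17 under quantile normalization.

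Tmed8 and Tmed5 fell, and Tmed8 stands among the cargo receptors by its symbol alone. Tmed8 read 385, 376 and 346 on NADA arrays, against 796, 796 and 721 on vehicle arrays. This was the largest decrease among the members, -1.06 ± 0.05 (adjusted p = 1.86e-11), and 5.13% of all genes lay lower. A second probe set of Tmed8, barely above the intensity limit, gave 0.12 ± 0.10 and was not called, and the mean over both sets was -0.47. Tmed5, a p24 protein, fell by 0.28.

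Of the 7 tested genes of ER entry, 6 rose and 1 fell as deposited, with a median of 0.56, against 35.9% and 37.6% of all genes. After scaling 1 rose and 2 fell, against 7.04% and 76% of all genes. Sec62, an accessory subunit of the translocation channel that also acts as a receptor for ER autophagy, read 1410, 1370 and 1247 on NADA arrays, against 741, 729 and 705 on vehicle arrays. It rose by 0.89 ± 0.04 (adjusted p = 2.97e-11), and the mean over its probe sets gave 0.58. Its partner Sec63, which recruits the chaperone BiP to the channel, read 482, 472 and 458 on NADA arrays, against 303, 279 and 293 on vehicle arrays.

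Sec63 rose by 0.69 ± 0.05 (adjusted p = 1.26e-09), with no call after scaling, at 0.11, and gave 0.42 on a probe set that is not of type x, s or a, the types that may bind several transcripts. Sec61a1, the channel itself, read 3669, 3693 and 3567 on NADA arrays, against 2472, 2463 and 2485 on vehicle arrays. It rose by 0.56 ± 0.03 (adjusted p = 2.33e-11) and stood at -0.02 after scaling. The signal peptidase subunit Sec11c rose by 0.56 on its brightest probe set and by 1.06 on a second one. Sec61b and Sec11a rose by 0.33 and 0.17 as deposited and stood at -0.25 and -0.41 after scaling. Sec61a2, a second channel gene, was called at -0.22, but its groups overlapped and the call was lost without NADA replicate 3, at -0.13, or vehicle replicate 3, at -0.14.

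The 3 Sec22 genes, which encode SNARE fusion proteins or relatives of them, split. Sec22b, the ER to Golgi SNARE, read 1138, 1113 and 1010 on NADA arrays, against 756, 742 and 732 on vehicle arrays, and rose by 0.55 ± 0.04 (adjusted p = 1.11e-08), with -0.03 after scaling. Sec22c read 113, 109 and 107 on NADA arrays, against 144, 140 and 141 on vehicle arrays, and fell by 0.37 (adjusted p = 2.56e-05). Sec22a read 243, 238 and 206 on NADA arrays, against 207, 215 and 207 on vehicle arrays. Its groups overlapped and it was not called, at 0.12 ± 0.06 (adjusted p = 0.0980), but was called at 0.20 without NADA replicate 3, and a second probe set rose by 0.48 (adjusted p = 0.000114).

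Among the Sec14-like genes, Sec14l2 read 175, 182 and 176 on NADA arrays, against 98.0, 94.5 and 104 on vehicle arrays, and rose by 0.84 ± 0.06 (adjusted p = 2.20e-09). Sec14l1 read 206, 228 and 197 on NADA arrays, against 170, 178 and 164 on vehicle arrays, a rise of 0.30 ± 0.06 (adjusted p = 0.000391). Sec14l3, a dim gene, read 63.0, 56.1 and 59.5 on NADA arrays, against 46.2, 54.6 and 47.9 on vehicle arrays, a rise of 0.27 ± 0.09 (adjusted p = 0.0104). Without vehicle replicate 1 the call of Sec14l3 was lost, at 0.22. A second probe set of Sec14l3 gave -0.04 and was not called. Sec14l4 was not called as deposited, at 0.02, and fell after scaling, at -0.56. After scaling, Sec14l1 and Sec14l3 stood at -0.28 and -0.31. Leaving out these lipid-binding genes left 46 tested members. As deposited, 31 of them rose and 9 fell, against 35.9% and 37.6% of all genes. After scaling 4 rose and 26 fell, against 7.04% and 76% of all genes.

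Paralogs were compared within each array, where any scaling of the array cancels. Of 12 listed pairs, both genes were tested in 9, and in 5 of these the within-array difference did not overlap between the groups. Among single genes, all NADA values lay above all vehicle values in 37.2% and below them in 38.8%. Pairs of other genes were not counted, so the number of pairs says nothing particular about paralogs. The log2 change of Sec24d minus that of Sec24c was 1.85, and Sec23a minus Sec23b gave 0.50, with both genes of each pair up as deposited. Sec22b minus Sec22c gave 0.92 and Sec61a1 minus Sec61a2 gave 0.78, with the first gene up and the second down as deposited. Sec11a minus Sec11c gave -0.39. Each of these 5 had an exact permutation p of 0.1, two-sided, the smallest possible with 3 arrays against 3, and 0.18 after Benjamini-Hochberg adjustment over the 9 pairs, so none could pass 0.05. The groups overlapped for Copg1 minus Copg2, at -0.18 (exact p = 0.3), Sar1a minus Sar1b, at 0.13 (exact p = 0.2), Sec24a minus Sec24b, at -0.05 (exact p = 0.4), and Lman1 minus Lman2, at 0.01 (exact p = 0.7).

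**Figure D3:**
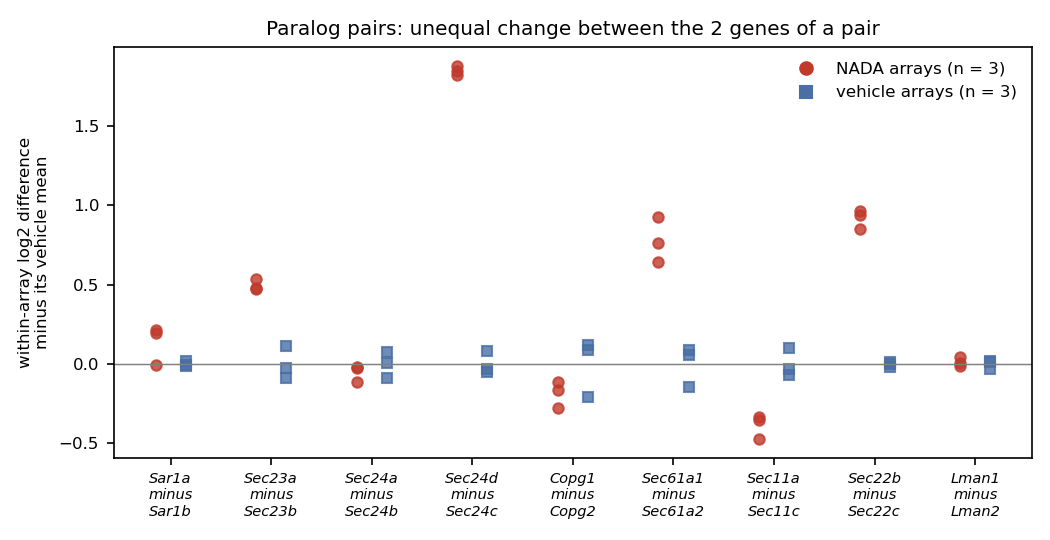
Difference in log2 intensity between the genes of each pair on each array, minus its mean over the vehicle arrays, for 3 NADA and 3 vehicle arrays. The Sec24d and Sec24c pair is displaced by 1.82 to 1.88 on NADA arrays, and the arrays of both groups mix for the Lman1 and Lman2 pair.

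Genes that work with the coats were counted as well. Beside these counts, 35.9% of all genes rose and 37.6% fell as deposited, and 7.04% rose and 76% fell after scaling. Of 49 transport partners, 29 rose and 14 fell as deposited, with a median of 0.27, and 5 rose and 28 fell after scaling. The list holds tethers, SNAREs, TRAPP and COG subunits, and also Rab1a, Rab1b, Rab2a, Scfd1, Scfd2, Vcp, Nsf, Napa and Napg. Stx5a, the Golgi syntaxin that pairs with Sec22b, rose by 1.70 ± 0.04 (adjusted p = 1.90e-15), its partner SNARE Bet1 by 1.56 and the tether Golgb1 by 1.32. Of 39 coat regulators and other cargo receptors, 24 rose and 11 fell as deposited, with a median of 0.21, and 3 rose and 25 fell after scaling. Arfgap3, which switches off Arf at the Golgi, rose by 2.23 ± 0.06 (adjusted p = 1.06e-14), whereas the receptors Ergic1 and Cnih1 fell. Ergic1 averaged 164 ± 25.2 on NADA arrays and 401 ± 8.41 on vehicle arrays (SD, n = 3 each), and Cnih1 fell by 1.11 on the log2 scale.

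Of 38 further genes of ER entry and signal peptide processing, 17 rose and 16 fell as deposited, with a median of 0.04. After scaling 1 rose and 27 fell. All genes gave 35.9% and 37.6% as deposited, and 7.04% and 76% after scaling. Spcs2, a signal peptidase subunit, rose by 0.88, and Emc8 and Emc6 of the membrane insertion complex fell by 0.99 and 0.81. Of 34 tested sensors and targets of the unfolded protein response, 28 rose and 3 fell as deposited, with a median of 0.65, and 13 rose and 8 fell after scaling. Ddit3, which encodes CHOP, rose by 2.67, Herpud1 by 2.03 and the chaperone partner Dnajb9 by 1.71. Hspa5, which encodes BiP, rose by 1.03 and Xbp1 by 0.94, and Atf6 rose by 0.39 as deposited and stood at -0.19 after scaling.

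**Figure D4:**
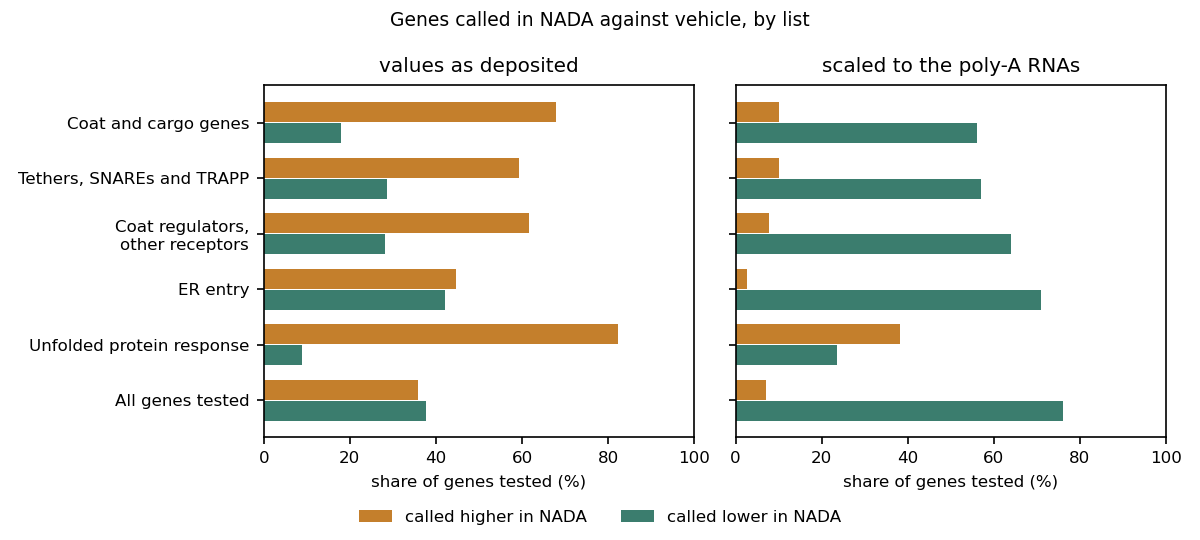
Share of tested genes called higher or lower in NADA against vehicle (x axis, percent) for the members, the 4 other lists and all genes (y axis), as deposited (left) and scaled to the poly-A RNAs (right). Members rose in 68% as deposited and in 10% after scaling, against 35.9% and 7.04% of all genes. The row of tethers, SNAREs and TRAPP is the whole list of transport partners.

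Of 13 pro-B and IL-3 response markers on the array, 7 were above the intensity limit, namely Ptprc, Myb, Csf2rb, Csf2rb2, Il3ra, Cd79b and Igll1, while Cd79a, Ebf1, Pax5, Vpreb1, Kit and Cd34 were below it. Their summed intensity was 17610 to 17640 on NADA arrays and 8348 to 8538 on vehicle arrays. As deposited, 6 of the 7 rose, all but Igll1, against 35.9% of all genes. Csf2rb2 and Csf2rb, beta chains of the IL-3 receptor, rose 5.08-fold and 3.37-fold, and both also rose after scaling, whereas Igll1 was called lower on that scale. Of 5 macrophage markers, 3 passed the limit, while Cd14 and Marco stayed below it. All 3 rose as deposited, against 35.9% of all genes, Csf1r narrowly (limma, adjusted p = 0.0493). After scaling Adgre1 rose, at 0.79, Lyz2 was not called, at 0.16, and Csf1r fell, at -0.40. The 5 macrophage markers summed to 579.5 to 597.3 on NADA arrays and 309.4 to 335.7 on vehicle arrays. The 3 erythroid markers summed to 293.6 to 315.8 on NADA arrays and 173.9 to 179.2 on vehicle arrays, with 2 above the limit. T cell markers, 2 of 5 above the limit, summed to 183.7 to 190.9 on NADA arrays and 170.1 to 187.8 on vehicle arrays. Fibroblast, epithelial and endothelial markers, 2 of 8 above it, summed to 230.9 to 250.9 on NADA arrays and 257.1 to 261.2 on vehicle arrays. All 4 markers of plasma cell secretion, Prdm1, Irf4, Jchain and Sdc1, were below the limit, summing to 97.48 to 103.7 on NADA arrays and 77.01 to 89.4 on vehicle arrays. The part of these markers in the results was not tested.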

How the data were processed

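The deposited values are linear intensities, 1 per probe set and array, as the authors made them. The submitters' processing notes name MAS5 and RMA without versions or roles, and no detection calls were used here. Array medians were 38.92 to 39.11 on NADA arrays and 37.95 to 38.13 on vehicle arrays, so the values were taken as normalized and used after log2. A normalization of this kind hides a change shared by most transcripts. Of 45101 probe sets, 64 were controls, and of the rest 34945 had 1 annotated gene, 932 several and 9160 none. The brightest of a gene's single-gene probe sets was tested, and 21 of the 50 tested members rest on a probe set of type x, s or a, which may bind several transcripts.

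NADA was compared with vehicle in limma 3.58.1 (R 4.3.3; lmFit and eBayes with an intensity trend, two-sided) in a model of the group alone. Paralog pairs and array controls were tested with exact permutation in scipy 1.17.1. Alternatives changed the normalization, the low-value handling, the choice of probe set and the arrays used. Members and lists were chosen with earlier results of these data known. Array values are given for the 3 members of each role with the largest absolute log2 difference, and the 3 called genes with the largest one are named in each other list, with Xbp1, Atf6 and Hspa5 added. Replicate numbers did not pair the samples: deviations of same-numbered arrays correlated at 0.16, -0.10 and 0.02 over genes. Promoters came from RefSeq.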

Additional observations from a re-analysis of the deposited data

How the results depend on the processing

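Scaling to the poly-A RNAs moved the most results. The members that rose numbered 5 and those that fell 28, against 7.04% and 76% of all genes. Transport partners gave 5 and 28, coat regulators 3 and 25, ER entry genes 1 and 27, and unfolded protein response genes 13 and 8, risers first. Under it 28 members changed sign: Arcn1 -0.19, Arf1 -0.56, Arf5 -0.37, Copg1 -0.41, Copg2 -0.22, Copz1 -0.47, Lman1 -0.39, Lman2 -0.40, Sar1a -0.52, Sec11a -0.41, Sec11c -0.020, Sec14l1 -0.28, Sec14l3 -0.31, Sec14l4 -0.56, Sec16a -0.092, Sec22a -0.46, Sec22b -0.031, Sec23b -0.25, Sec23ip -0.32, Sec24c -0.20, Sec31a -0.18, Sec61a1 -0.019, Sec61b -0.25, Tmed10 -0.35, Tmed3 -0.42, Tmed4 -0.48, Tmed7 -0.41 and Tmed9 -0.25. Every difference is lower by the same shift by construction. Requiring 1.5-fold left 11 members higher and 2 lower, against 13.1% and 15.9% of all genes. It left 13 and 2 partners, 6 and 4 regulators, 4 and 3 ER entry genes, and 18 and 1 unfolded protein response genes. ER entry genes that fell numbered 10 under quantile normalization and 9 without x, s and a probe sets, and 1 unfolded protein response gene fell with the intensity limit at the 70th percentile. The cause was not tested. Sar1b turned to 0.00066 under quantile normalization, and Sec24a minus Sec24b to 0.075 with the mean of passing probe sets. Lman1 minus Lman2 ran from -0.0052 to 0.0243 over the arrays left out, below 0 without NADA replicate 1 or vehicle replicate 3. Leaving out 1 array gave 31 to 36 members that rose and 7 to 9 that fell. Of all 10520 genes, 3570 to 3839 rose and 3788 to 3917 fell in these fits. The partners gave 28 to 29 and 13 to 14, and the regulators 23 to 25 and 10 to 11. ER entry genes gave 15 to 18 and 13 to 16, and unfolded protein response genes 28 and 3. A replicate block gave 35 members that rose and 9 that fell, although the numbers share only a label. With it, 3789 of all 10520 genes rose and 3966 fell. Genes near background, such as Sec14l3 and the second Tmed8 probe set, limit what can be measured.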
